A study of Mus musculus with 2 samples.

Results

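The genes described here are 10 genes of blood and lymphatic vessel growth, taken by symbol from the 32285 mouse genes counted in nuclei of injured tibial periosteum. They are the ligands Vegfa and Vegfc, the receptor tyrosine kinases Flt1, Kdr and Flt4, the coreceptors Nrp1 and Nrp2, the ligands Angpt1 and Angpt2 and their receptor Tek. Each symbol matched 1 gene. Nuclei were pooled from 3 or 4 C57BL6 mice per library (C57BL6 in the labels, where the study lists C57BL/6ScNj among its strains), without a transgene or drug, and the mice were 10 to 14 weeks old and of both sexes. The day 1 fracture library came from activated periosteum and hematoma after an open, non-stabilized tibial fracture. The day 5 MTI library came from the same tissues after musculoskeletal traumatic injury (MTI), in which the muscles around the fractured tibia were also crushed. With 1 library per condition, day and injury differed together and their parts cannot be told apart, so values of both libraries are given side by side and were not tested.

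VEGF ligands are secreted proteins that bind receptors on endothelial cells, where KDR carries most of the growth and permeability signal, FLT1 binds VEGFA tightly and can act as a decoy, and FLT4 is best known as the VEGFC receptor of lymphatic vessels. Neuropilins are coreceptors shared by VEGF ligands and class 3 semaphorins, and pair with plexins for the latter. ANGPT1 from cells around the vessel activates TEK (TIE2) and stabilizes vessels, whereas ANGPT2, stored in endothelial cells, can counteract it. In bone repair, vessel ingrowth into the callus accompanies cartilage replacement, and hypertrophic chondrocytes and osteoblasts are known sources of VEGFA.

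After filtering, 1127 nuclei of the day 5 MTI library were retained, with a median of 2364 unique molecular identifiers (UMIs, each 1 captured RNA molecule) per nucleus, and 2405 nuclei of the day 1 fracture library with a median of 409. The deeper MTI library therefore carries most of the description. Clusters, made without the 10 genes and the wider pathway list, were called X-like from marker genes. After MTI there were 36 endothelial-like, 283 macrophage-like, 64 monocyte-like, 89 neutrophil-like, 30 osteoclast-like, 33 erythroid-like and 47 mixed lymphoid-like nuclei. There were also 103 chondro-osteogenic-like and 77 progenitor/fibrogenic-like nuclei, together called skeletal lineage-like, and 2 myogenic-like clusters, a muscle fiber cluster of 106 nuclei and a cluster of 20 nuclei led by Chodl, Dcx and Pax7. Clusters of 173 and 66 nuclei stayed unnamed, with median depths of 685 and 792.5 UMIs. The endothelial-like nuclei carried all 14 endothelial markers, at 20002 UMIs per 1000000 UMIs of the population (CPM), against 76.8 to 3380 CPM in the other named populations. The highest of these, muscle fiber nuclei, came down to 102 CPM without Cdh13. Both libraries shared 33 barcodes, of which 15 were retained in both. Levels below are summed UMIs and CPM per population with exact Poisson 95% intervals, and the 95% interval of a ratio is an exact binomial one, conditional on the sum of both counts. All intervals cover counting error only, and neither nuclei nor genes are replicates. Fewer cells of a type and less RNA per cell cannot be told apart in sums over all nuclei, and a gene was called higher or lower at a ratio of at least 2 or at most 0.5.

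**Figure D1:**
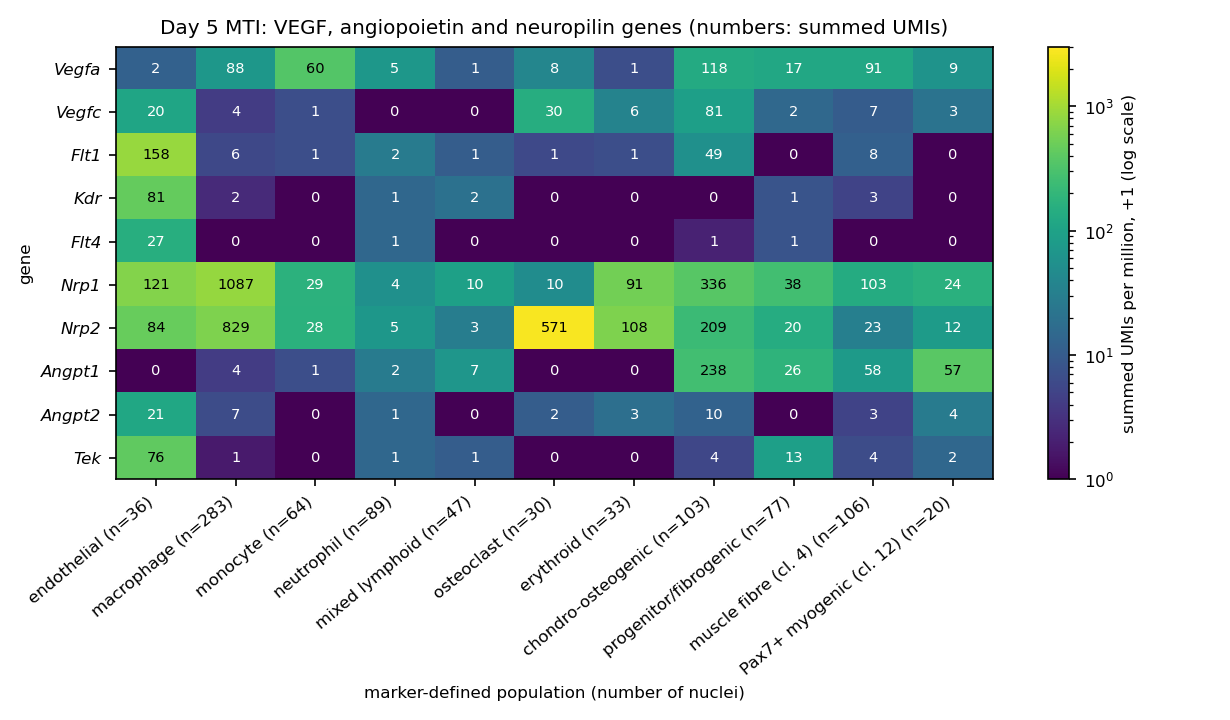
Heat map of the 10 genes (vertical axis) in 11 named populations of the day 5 MTI library (horizontal axis). Color gives CPM plus 1 on a log scale and the number in each cell the summed UMIs; Flt1, Kdr, Flt4 and Tek are bright in the endothelial column, Nrp2 in the osteoclast column (571 UMIs) and Angpt1 in the skeletal and Chodl/Dcx/Pax7 columns.

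The VEGF receptor genes were concentrated in the small endothelial-like cluster of the day 5 MTI library. Flt1 had 158 UMIs there, or 873 CPM (742 to 1020), which was 39.4 times (30.3 to 51.6) the level of all other nuclei. Kdr had 81 UMIs, or 447 CPM (355 to 556), a ratio of 124 (70.9 to 232). Flt4 had 27 UMIs, or 149 CPM (98.3 to 217), a ratio of 77.5 (34.2 to 197), which was 598 (97.2 to 24654) with a mitochondrial limit of 0.5%. The cluster held 4.17% of the UMIs of all retained nuclei but 63.2% of those of Flt1, 84.4% of those of Kdr and 77.1% of those of Flt4. The angiopoietin receptor Tek had 76 UMIs there, or 420 CPM (331 to 525), a ratio of 48.5 (32.2 to 74.2), and 67.9% of all its UMIs. Of the 10 genes, 6 were called higher in endothelial-like nuclei (these 4 with Angpt2 and Vegfc) and 2 lower (Vegfa and Angpt1). Of the 15213 genes with at least 10 UMIs, 13.5% were called higher and 39.6% lower in the same comparison. The median ratio was 8.29 over the 10 genes and 0.753 over all genes tested.

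The 4 receptor genes lie in the mm10 genome at chr5:147561604-147726011 (Flt1, minus strand), chr5:75932827-75978458 (Kdr, minus strand), chr11:49609263-49652739 (Flt4, plus strand) and chr4:94739289-94874976 (Tek, plus strand). Longer genes yield more intronic UMIs in nuclei, so levels of different genes were compared per kb of gene span. In endothelial-like nuclei Kdr then had the highest level of the 10 genes, at 9.81 CPM per kb, followed by Flt1 at 5.31, Nrp1 at 4.62, Nrp2 at 4.02, Flt4 at 3.43, Tek at 3.09 and Angpt2 at 2.26. Per kb of exon the order differed, with Tek at 89.1 CPM per kb, Nrp1 at 68.3, Flt1 at 64.6 and Kdr at 49.5, so the order of the genes depends on which length is used. RefSeq promoter windows on GRCm38.p6, the same assembly, matched 8 of the 10 genes. The stretches from 250 to 11 bases upstream of the start of Flt1, Kdr and Tek are shown because these genes shared the endothelial-like pattern. Capitals mark matches on either strand to the hypoxia response cores ACGTG and GCGTG (reverse strand CACGT and CACGC) and to the ETS-type motifs AGGAAG and CGGAAG (reverse strand CTTCCT and CTTCCG). ETS factors such as ERG bind motifs of the latter kind in endothelial genes.
Flt1 (chr5:147726022-147726261, minus strand): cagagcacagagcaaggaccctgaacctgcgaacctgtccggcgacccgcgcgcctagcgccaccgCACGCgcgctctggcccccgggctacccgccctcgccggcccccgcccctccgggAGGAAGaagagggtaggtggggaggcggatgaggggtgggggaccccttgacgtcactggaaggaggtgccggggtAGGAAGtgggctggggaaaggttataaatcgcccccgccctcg
Kdr (chr5:75978466-75978705, minus strand): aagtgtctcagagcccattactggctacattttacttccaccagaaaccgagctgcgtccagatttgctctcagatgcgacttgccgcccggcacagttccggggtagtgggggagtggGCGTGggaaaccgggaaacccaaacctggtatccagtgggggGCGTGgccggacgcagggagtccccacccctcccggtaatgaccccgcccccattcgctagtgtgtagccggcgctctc
Tek (chr4:94739039-94739278, plus strand): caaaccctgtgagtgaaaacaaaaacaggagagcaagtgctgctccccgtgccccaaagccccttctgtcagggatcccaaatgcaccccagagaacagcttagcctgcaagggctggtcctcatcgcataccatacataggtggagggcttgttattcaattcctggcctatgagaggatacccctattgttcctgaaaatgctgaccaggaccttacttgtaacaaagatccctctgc
The Flt1 stretch held AGGAAG at 129 and 53 bases before the start and GCGTG on the reverse strand at 184 bases. The Kdr stretch held GCGTG at 131 and 89 bases before the start, and the Tek stretch none of the 4 motifs. Over all 32851 promoter windows of 300 bases, 32.4% held GCGTG, 35.4% AGGAAG, 19.6% ACGTG and 16.9% CGGAAG, so that such matches are common and describe letters only. Of the other members, the windows of Nrp1 held 1 GCGTG and 1 AGGAAG, Nrp2 2 GCGTG, and 1 of the 2 Vegfa windows 1 ACGTG and 1 GCGTG. The windows of Vegfc and Flt4 held none, and Angpt1 and Angpt2 had no entry.

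The receptor UMIs were spread over most endothelial-like nuclei. Flt1 was detected in 30 of the 36 nuclei (83.3%), with a median of 4 UMIs and up to 24. Kdr and Tek were each detected in 25 (69.4%), with a median of 2 UMIs, and Flt4 in 12 (33.3%), with at most 4 UMIs. Of the 33 erythroid-like nuclei, 1 (3.03%) had a Flt1 UMI, at a median depth of 3613 UMIs against 3861.5. These nuclei are not a clean Flt1-negative reference, since 17 of them carried at least 2 macrophage markers. Of macrophage-like nuclei, a cell type in which FLT1 is known, 2.12% had a Flt1 UMI and 0.707% a Kdr UMI, at a median depth of 4108 UMIs. After thinning every nucleus to 500 UMIs, Flt1 was detected in 36.1% of endothelial-like and 0.353% of macrophage-like nuclei. Of the 36 endothelial-like nuclei, 35 carried at least 1 of the 4 receptor genes, 28 at least 2, 22 at least 3 and 7 all 4. Flt1 and Kdr were found together in 22 nuclei and Kdr and Tek in 19. Lymphatic identity was not visible at this depth: in the endothelial-like nuclei Prox1 had 2 UMIs, Reln 1 and Mmrn1, Ccl21a and Lyve1 0, and none of the 12 nuclei with Flt4 carried a UMI of these 5 lymphatic markers.

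**Figure D2:**
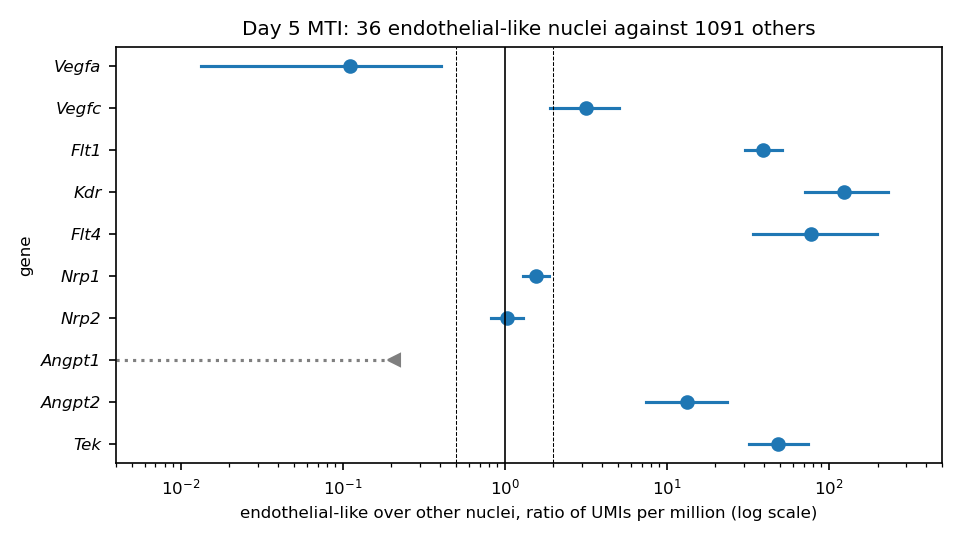
Ratio of CPM in 36 endothelial-like nuclei over the 1091 other retained nuclei of the day 5 MTI library for each of the 10 genes, on a log axis. Points are ratios and lines exact 95% intervals for counting error; dashed lines mark the 2-fold limits, and the arrow gives the upper limit of Angpt1, which had 0 UMIs in endothelial-like nuclei.

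Other genes of the pathway list were higher in the same nuclei. Of its other 32 genes, 29 had at least 10 UMIs. In endothelial-like nuclei 14 of these were called higher and 8 lower, where 13.5% and 39.6% of all genes tested were. This list was chosen with earlier results of these data known. Among them were partners of TEK: Ptprb, a phosphatase that dampens TEK and KDR signaling, had 210 UMIs (1160 CPM, ratio 172, 116 to 265), and Tie1, the orphan relative of TEK, had 40 (221 CPM, ratio 306, 97.5 to 1547). Dll4, the Notch ligand of endothelial tip cells, had 19 of its 21 UMIs there (105 CPM, ratio 218, 52.6 to 1931), and Notch1 was 4.90 times as high (32 UMIs). Apln, another tip cell gene, had 23 UMIs in 5 nuclei (ratio 66.0) and its receptor Aplnr 15 in 7 (ratio 86.1). Rasip1, needed for vessel lumen formation, had 34 UMIs (ratio 86.7), Sox18 7 (ratio 53.6), and Epas1, the hypoxia-inducible factor typical of endothelium, 51 (ratio 19.2, 13.0 to 28.3). Of the plexins, Plxna2 (111 UMIs, ratio 7.68), Plxnd1 (86, ratio 7.74) and Plxna4 (78, ratio 4.41) were higher. Of the semaphorins, Sema3f had 24 UMIs (ratio 29.0) and Sema3g 4 (ratio 9.18, 2.10 to 31.8), whereas Sema3c was lower, with 3 UMIs (ratio 0.138). Esm1 and Sox17 were under 10 UMIs and not tested, with 4 and 7 UMIs in endothelial-like nuclei and 1 each outside.

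The endothelial receptors were rarely seen elsewhere. Kdr had 3 UMIs in muscle fiber nuclei, 2 in macrophage-like, 2 in mixed lymphoid-like, 1 in neutrophil-like and 1 in progenitor/fibrogenic-like nuclei, and 0 in the other 5 named populations. Of all 96 Kdr UMIs, the rest outside the endothelial-like nuclei were in unnamed clusters. Among the other named populations Flt1 stood out in chondro-osteogenic-like nuclei, with 49 UMIs (55 CPM, 40.7 to 72.8). The unnamed cluster of 173 nuclei, described below, had a higher level (134 CPM). The 49 UMIs were all in 9 of the 103 chondro-osteogenic-like nuclei, 20 of them in 1 nucleus. Of the 103 nuclei, 9 carried Myh11 or Rgs5, markers of smooth muscle cells and pericytes, and these held 33 of the 49 Flt1 UMIs (408 CPM, 281 to 573), in 4 nuclei. The other 94 nuclei had 16 UMIs (19.8 CPM, 11.3 to 32.1). Of the 9 nuclei with Flt1, 6 carried 2 or more endothelial markers. The 63 chondro-osteogenic-like nuclei with fewer such markers held 22 of the 49 Flt1 UMIs (44.5 CPM, 27.9 to 67.4). With the clustering resolution doubled, 73 nuclei took the name pericyte/SMC-like, of which 58 came from the 77 progenitor/fibrogenic-like nuclei and 11 from the chondro-osteogenic-like ones. Each pericyte/SMC marker was detected in a minority of the 73 nuclei, from 2 (Kcnj8) to 19 (Pdgfrb), with Myh11 in 7 and Rgs5 in 5. How many of the 73 are mural cells was not tested. The name progenitor/fibrogenic-like therefore depends on the resolution, and with it the levels given for it. The pericyte/SMC-like cluster had Flt1 at 44 UMIs in 5 nuclei (299 CPM, ratio 6.07, 4.28 to 8.44), Angpt1 at 30 (204 CPM, ratio 2.24) and Kdr and Tek at 0. Tek had a second, much lower site in progenitor/fibrogenic-like nuclei, with 13 UMIs (91.3 CPM, 48.6 to 156) in 4 of 77 nuclei and up to 5 in 1 nucleus. None of the 4 carried 2 or more endothelial markers. The endothelial-like level of Tek was 4.6 times (2.53 to 9.03) this one. The unnamed cluster of 173 nuclei also had Flt1 (22 UMIs, 134 CPM), Tek (10, 61.1 CPM) and Flt4 (5, 30.5 CPM), beside 1142 CPM of endothelial markers, and was not assigned to any cell type.

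The VEGF ligand Vegfa followed a different order, with its highest level in monocyte-like nuclei. They had 60 Vegfa UMIs, or 355 CPM (271 to 456), in 24 of 64 nuclei, 4.15 times (3.10 to 5.47) the other nuclei and 2.67 times (1.93 to 3.68) the next population. Chondro-osteogenic-like nuclei had 118 UMIs (133 CPM, 110 to 159), muscle fiber nuclei 91 (122 CPM, 98.3 to 150) and progenitor/fibrogenic-like nuclei 17 (119 CPM, 69.6 to 191). These levels did not differ beyond counting error, since the intervals of their ratios lay between 0.605 and 1.97 and each included 1. Macrophage-like nuclei followed with 88 UMIs (68.5 CPM) and neutrophil-like nuclei with 5 (67.8 CPM). The Chodl/Dcx/Pax7 cluster had 9 UMIs (60.4 CPM), all in 1 nucleus, and osteoclast-like nuclei 8 (39.0 CPM). Endothelial-like nuclei had 2 Vegfa UMIs (11 CPM, 1.34 to 39.9), and mixed lymphoid-like and erythroid-like nuclei 1 each. By number of UMIs, skeletal lineage-like nuclei held 135 of 416 Vegfa UMIs (32.5%), immune-like nuclei 154 (37.0%) and myogenic-like nuclei 100 (24.0%), so no class held most of them. Of the 64 monocyte-like nuclei, the 52 with at least 2 macrophage markers had 51 Vegfa UMIs (358 CPM) and the other 12 had 9 (338 CPM). Over the other nuclei, the skeletal lineage-like ratio was 1.54 (1.24 to 1.89) and did not reach the 2-fold limit, whereas without the upper gene limit it was 2.04 (1.71 to 2.43).

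Within the macrophage-like nuclei Vegfa was uneven. The subcluster led by Arg1, Hmox1 and Ptgr1 (61 nuclei) had 44 UMIs, or 143 CPM (104 to 192). The subcluster with Mmp12 and Spp1 (68 nuclei) had 28 (84.8 CPM, 56.4 to 123), that with Cd163, Mrc1 and Ccl8 (75 nuclei) 13 (42.1 CPM, 22.4 to 72.0), and that with Dnase1l3 and Cd4 (79 nuclei) 3 (8.87 CPM, 1.83 to 25.9). The first of these levels was 16.1 times the last (5.16 to 81.0). Egln3, a prolyl hydroxylase whose gene is induced by hypoxia-inducible factors, showed the same order of subclusters, with 61, 20, 13 and 3 UMIs (198, 60.6, 42.1 and 8.87 CPM). Monocyte-like nuclei had 61 Egln3 UMIs (360 CPM, 276 to 463; ratio 7.44, 5.49 to 9.95), together with higher Hif1a (114 UMIs, ratio 2.5), Egln1 (38, ratio 3.35) and Vhl (5, ratio 3.08, 0.948 to 7.80). The orders parted in 2 places. Neutrophil-like nuclei had 26 Egln3 UMIs (353 CPM, 230 to 517), a level whose interval overlaps that of monocyte-like nuclei, but 5 of Vegfa. Chondro-osteogenic-like nuclei had the opposite, with 118 Vegfa UMIs beside 21 of Egln3 (23.6 CPM, 14.6 to 36.1), and Hif1a there was 2.05 times the other nuclei (428 UMIs). Neutrophil-like nuclei were shallow, with a median of 738 UMIs.

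**Figure D3:**
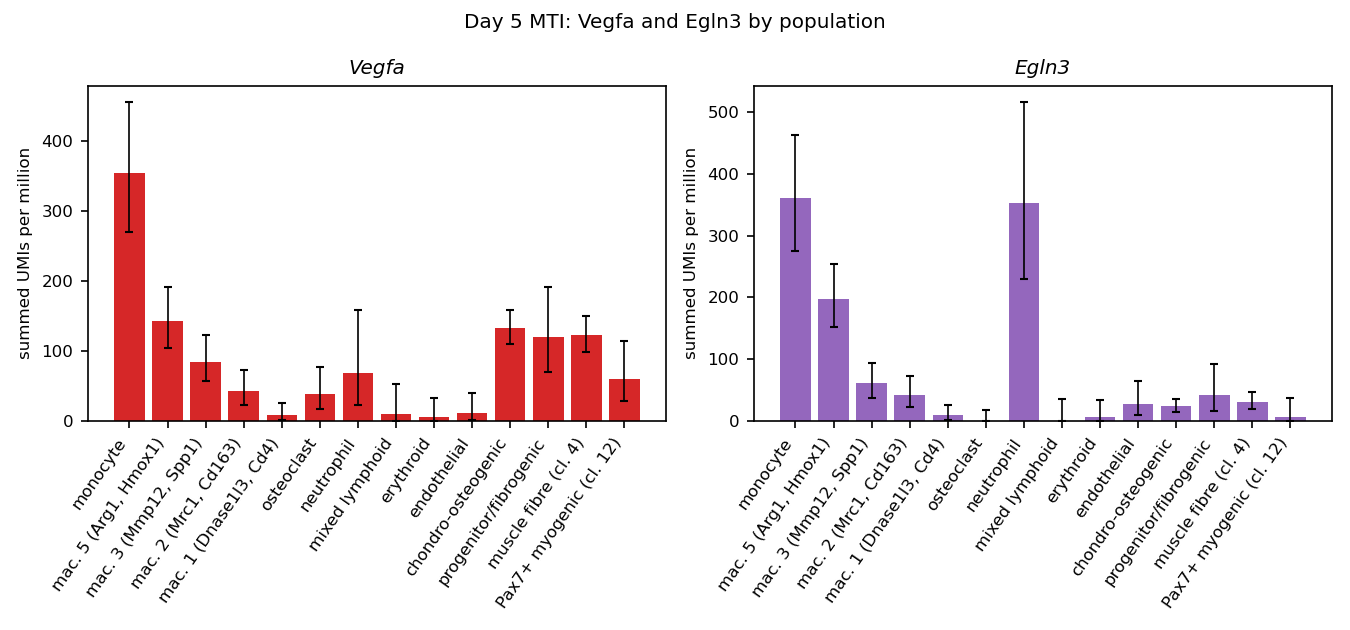
CPM of Vegfa (left) and Egln3 (right) in monocyte-like nuclei, 4 macrophage-like subclusters (mac., with leading genes) and the other named populations of the day 5 MTI library. Bars are summed CPM from 0 and lines exact Poisson 95% intervals; Vegfa is highest in monocyte-like nuclei (355 CPM), Egln3 is high in monocyte-like (360 CPM) and neutrophil-like nuclei with overlapping intervals, and both step down over the 4 macrophage-like subclusters from 143 to 8.87 CPM (Vegfa) and from 198 to 8.87 CPM (Egln3), and neutrophil-like nuclei stand at 353 CPM for Egln3 and 67.8 CPM for Vegfa.

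Vegfc, the main ligand of FLT4, had fewer UMIs (164) and other sources. Osteoclast-like nuclei had 30 UMIs (146 CPM, 98.7 to 209) in 12 of 30 nuclei, endothelial-like nuclei 20 (110 CPM, 67.5 to 171) in 8 of 36, and chondro-osteogenic-like nuclei 81 (91.0 CPM, 72.3 to 113) in 31 of 103. Neighbors in this order did not differ beyond counting error (ratios 1.32, 0.727 to 2.46, and 1.21, 0.705 to 2.00), but the osteoclast-like level was 1.61 times (1.02 to 2.47) the chondro-osteogenic-like one. All 3 were called higher than the other nuclei, with ratios of 4.51, 3.19 and 3.78. The chondro-osteogenic-like level was 2.57 times (1.13 to 7.21) the next one, that of erythroid-like nuclei, with 6 UMIs of which 5 were in 1 nucleus. Progenitor/fibrogenic-like nuclei had 2 UMIs, macrophage-like nuclei 4, monocyte-like nuclei 1, and neutrophil-like and mixed lymphoid-like nuclei 0. Skeletal lineage-like nuclei as a whole were 3.28 times (2.39 to 4.51) the others. The other VEGF ligands were sparse. Vegfd had 85 UMIs in retained nuclei and was higher in muscle fiber (30 UMIs, ratio 2.63), chondro-osteogenic-like (29, ratio 2.01) and progenitor/fibrogenic-like nuclei (9, ratio 3.49). Vegfb had 30 UMIs, with 3 each in osteoclast-like (ratio 2.24, 0.435 to 7.27) and progenitor/fibrogenic-like nuclei (ratio 3.27, 0.636 to 10.6), and Pgf had 9 and was not tested.

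Over all retained nuclei both neuropilin genes had far more UMIs than the VEGF receptor genes, and their highest levels lay outside the endothelial-like nuclei. In endothelial-like nuclei themselves Flt1 (873 CPM) was above Nrp1 (668 CPM) and Nrp2 (464 CPM). These counts and CPM are not corrected for gene length, and per kb of exon Nrp1 (68.3) was above Flt1 (64.6). Nrp1 had 1891 UMIs, of which macrophage-like nuclei held 57.5%, at 846 CPM (796 to 898), 3.21 times (2.93 to 3.52) the other nuclei and 1.27 times (1.05 to 1.54) the endothelial-like level. This macrophage-like ratio stayed above 2 in all alternatives but was 2.42 without the upper gene limit, where 236 nuclei took the name in place of 283. Endothelial-like nuclei had 121 Nrp1 UMIs (668 CPM, 555 to 799; ratio 1.57) and chondro-osteogenic-like nuclei 336 (377 CPM, 338 to 420). Osteoclast-like nuclei had the lowest Nrp1 level, 10 UMIs or 48.8 CPM (23.4 to 89.7), and neutrophil-like nuclei (4 UMIs, 54.2 CPM) did not differ from them beyond counting error.

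Nrp2 had the opposite place in osteoclast-like nuclei. They had 571 UMIs, or 2784 CPM (2560 to 3022), 8.42 times (7.62 to 9.29) the other nuclei and 4.32 times (3.87 to 4.81) the next population. It was detected in 28 of the 30 nuclei, with a median of 17 UMIs and up to 48, so 30 nuclei held 29.5% of all 1937 Nrp2 UMIs. Macrophage-like nuclei had 829 UMIs (645 CPM, 602 to 690), erythroid-like nuclei 108 (638 CPM), endothelial-like nuclei 84 (464 CPM, 370 to 574; ratio 1.04, 0.826 to 1.30) and muscle fiber nuclei 23 (30.9 CPM). Of the plexins, which transmit semaphorin signals beside neuropilins, Plxna4 had 237 UMIs in osteoclast-like nuclei (1155 CPM, ratio 19.3, 16.1 to 23.2) and Plxnd1 81 (395 CPM, ratio 6.28, 4.83 to 8.08). Plxna1, also a semaphorin receptor, was higher in macrophage-like nuclei (105 UMIs, ratio 2.49, 1.88 to 3.31). Of the 10 genes, 2 were called higher (Nrp2 and Vegfc) and 7 lower in osteoclast-like nuclei, where 12.1% and 43.2% of all genes tested were.

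In erythroid-like nuclei Nrp1, but not Nrp2, was higher where macrophage markers were found. Of the 33 erythroid-like nuclei, 17 carried at least 2 macrophage markers, and these had 89 of the 91 Nrp1 UMIs (658 CPM) against 2 (58.5 CPM) in the other 16. Nrp2 had 77 UMIs (570 CPM, 449 to 712) in the former and 31 (906 CPM, 616 to 1286) in the latter. Of 9 macrophage markers, 8 were detected in the erythroid-like nuclei, at 2715 CPM. The part of macrophage RNA in these levels was not tested. Among osteoclast-like nuclei, Nrp2 was high in the 15 with 2 or more macrophage markers (2388 CPM) and in the 15 without (3784 CPM). Within macrophage-like nuclei, Nrp1 ranged from 1021 CPM (911 to 1140) in the Cd163/Mrc1/Ccl8 subcluster to 649 (562 to 745) in the Arg1/Hmox1 subcluster. Nrp2 ranged from 800 CPM (706 to 902) in the Mmp12/Spp1 subcluster to 541 in the Dnase1l3/Cd4 and Cd163/Mrc1/Ccl8 subclusters.

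**Figure D4:**
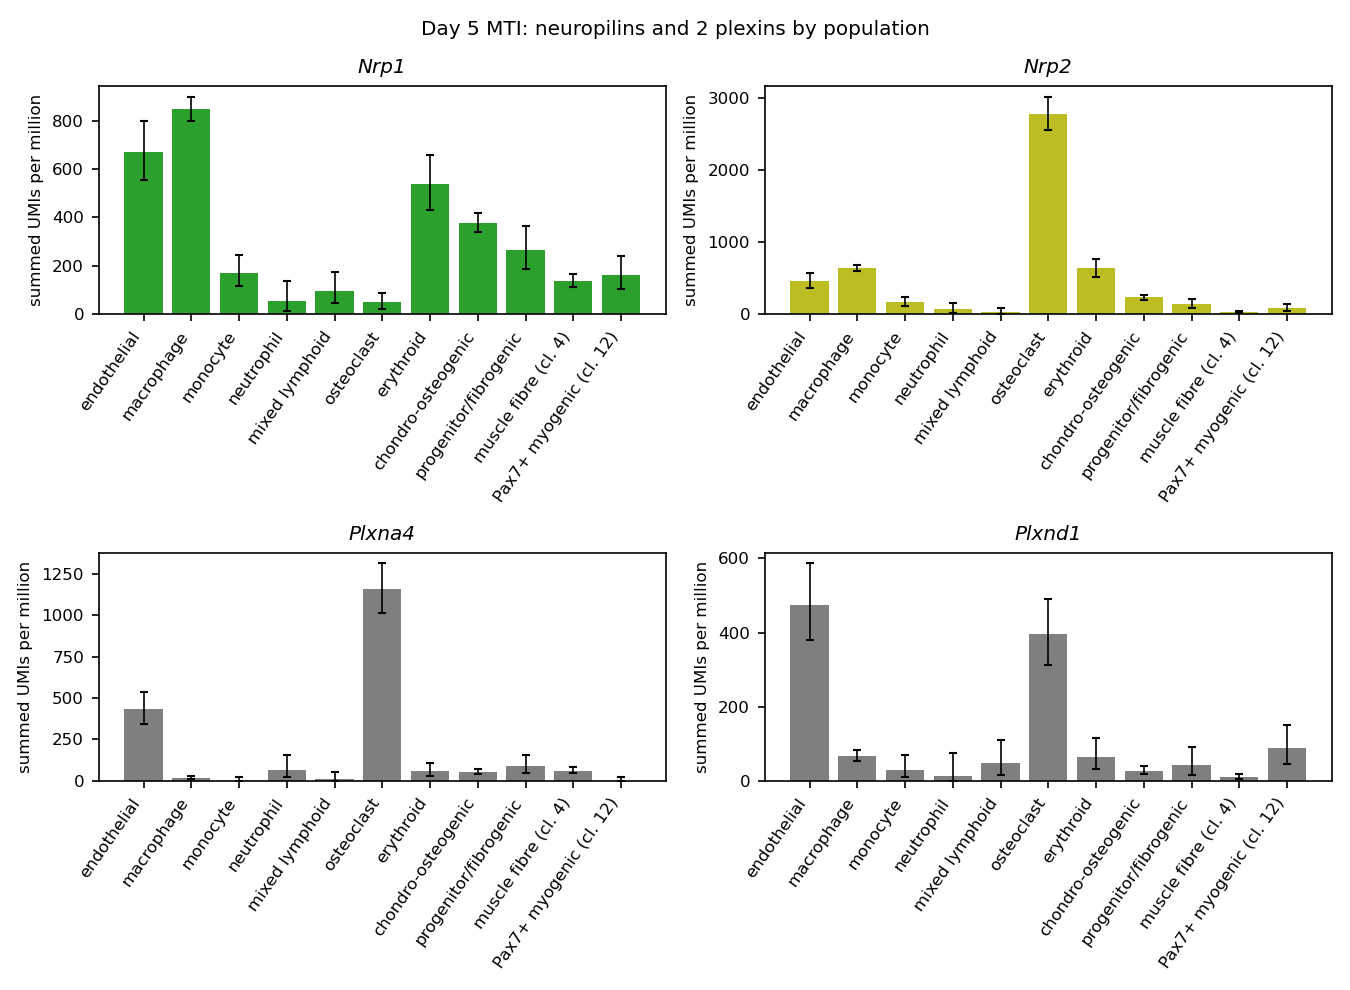
CPM of Nrp1, Nrp2, Plxna4 and Plxnd1 by named population of the day 5 MTI library, each on its own axis from 0, with exact Poisson 95% intervals. Nrp1 is highest in macrophage-like nuclei (846 CPM) and lowest in osteoclast-like ones, whereas Nrp2 and Plxna4 are highest in osteoclast-like nuclei, and Plxnd1 stands at 475 CPM in endothelial-like and 395 CPM in osteoclast-like nuclei with overlapping intervals.

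Apart from Sema3f and Sema3g in endothelial-like nuclei, the semaphorin ligands called higher were so in skeletal and myogenic nuclei. Sema3c had 129 UMIs in progenitor/fibrogenic-like nuclei (906 CPM, ratio 10.2, 8.30 to 12.5). Sema3a was higher in chondro-osteogenic-like nuclei (114 UMIs, ratio 3.25) and in the Chodl/Dcx/Pax7 cluster (47, ratio 6.51), and Sema3d in both of these (41, ratio 2.15, and 14, ratio 3.90) and in progenitor/fibrogenic-like nuclei (9, ratio 2.5). Sema3e was higher in the Chodl/Dcx/Pax7 cluster (14 UMIs, ratio 6.67), as were Sema3g (7, ratio 28.1), Plxna2 (96, ratio 7.78) and Notch1 (26, ratio 4.69). Sema3b was higher in muscle fiber nuclei (25 UMIs, ratio 11). Plxna3 had 21 UMIs in all, with 2 in neutrophil-like (ratio 6.09), 8 in chondro-osteogenic-like (ratio 2.38) and 2 in progenitor/fibrogenic-like nuclei (ratio 3.10), and each interval included 1. Unc5b, a netrin receptor also found on tip cells, was higher in chondro-osteogenic-like (48 UMIs, ratio 5.63) and progenitor/fibrogenic-like nuclei (12, ratio 5.13), and Epas1 had 13 UMIs in the latter (ratio 3.87).

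The angiopoietin ligands divided between non-endothelial and endothelial nuclei. Angpt1 had no UMI in endothelial-like, osteoclast-like or erythroid-like nuclei. The Chodl/Dcx/Pax7 cluster had the highest level, 57 UMIs or 383 CPM (290 to 496) in 11 of 20 nuclei, with up to 15 in 1 nucleus, 1.43 times (1.05 to 1.92) that of chondro-osteogenic-like nuclei. The latter had 238 UMIs (267 CPM, 234 to 304) in 44 of 103 nuclei, or 58.0% of all 410 Angpt1 UMIs. Progenitor/fibrogenic-like nuclei had 26 (183 CPM, 119 to 268), within counting error of chondro-osteogenic-like ones (ratio 1.46, 0.974 to 2.29), and muscle fiber nuclei 58 (77.8 CPM, 59.1 to 101). Skeletal lineage-like nuclei together were 5.79 times (4.71 to 7.13) the others. With endothelial-like nuclei set to 3 UMIs, a floor put in place of the count of 0, the chondro-osteogenic-like level was 16.1-fold higher than the endothelial-like one. The exact interval of the ratio began lower, at 13.0. Among the immune-like populations, mixed lymphoid-like nuclei had 7 UMIs, macrophage-like 4, neutrophil-like 2 and monocyte-like 1.

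Angpt2 was scarce, with its highest level in endothelial-like nuclei. Of its 57 UMIs, 21 (36.8%) were in 8 endothelial-like nuclei (116 CPM, 71.8 to 177; ratio 13.4, 7.43 to 23.6), with up to 6 in 1 nucleus. With a mitochondrial limit of 0.5% the ratio was 32.5. In the main setting the endothelial-like level was 4.32 times (1.46 to 17.3) that of the next named population, the Chodl/Dcx/Pax7 cluster with 4 UMIs (26.8 CPM). Chondro-osteogenic-like nuclei had 10 UMIs, macrophage-like 7, erythroid-like 3, muscle fiber 3, osteoclast-like 2 and neutrophil-like 1, and the rest were in unnamed clusters. Angpt2 lies at chr8:18690263-18741562 on the minus strand of mm10 and overlaps Mcph1 on the plus strand, which had 537 UMIs in retained nuclei and 15 in endothelial-like ones. Whether reads were counted by strand is not given in the sources used here, and any part of Mcph1 reads in the Angpt2 counts was not tested. Tek and Angpt2 were found together in 4 endothelial-like nuclei. Angpt4, another TEK ligand, had 17 UMIs, 7 of them in chondro-osteogenic-like nuclei (ratio 2.71, 0.876 to 7.89).

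Counted over the 10 genes, the endothelial-like cluster was the only one of the 11 populations in which more of them were called higher than lower. In macrophage-like nuclei 1 was higher (Nrp1) and 7 lower, where 10.5% and 33.8% of all genes tested were, and in monocyte-like nuclei 1 was higher (Vegfa) and 9 lower, where 10.5% and 45.1% were. In chondro-osteogenic-like nuclei 2 were higher (Angpt1 and Vegfc) and 4 lower (background 15% and 27.2%), and in progenitor/fibrogenic-like nuclei 1 was higher (Tek) and 5 lower (15.7% and 36.5%). In the Chodl/Dcx/Pax7 cluster 2 were higher (Angpt1 and Angpt2, the latter with 4 UMIs) and 5 lower (15.7% and 39.5%). None was higher in the other 4 populations. There 8 were lower in muscle fiber nuclei (39.6% of all genes tested), 8 in mixed lymphoid-like nuclei (45.8%), 6 in erythroid-like nuclei (37.0%) and 5 in neutrophil-like nuclei (54.5%), and 12.7%, 15.4%, 14.2% and 16.5% of all genes tested were higher.

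Likeness of pattern was measured as the Pearson correlation of log2(CPM + 10) over the 11 named populations, among 6867 genes with at least 100 UMIs. It is a description, since the populations share 1 library and differ in depth. Flt1 was most like Cyyr1 (0.954), Adgrf5 (0.938) and Egfl7 (0.926), and Kdr like Cyyr1 (0.944), Emcn (0.942) and D5Ertd615e (0.937). Tek was most like Shank3 (0.895), Kitl (0.883) and Col15a1 (0.875). Cyyr1, Egfl7, Emcn and Shank3 are endothelial markers used for the names. Vegfa was most like Bnip3 (0.877), a mitophagy gene known to be induced in hypoxia, then Prune1 (0.806) and Abhd18 (0.803). Vegfc was most like Cwc22 (0.914), Taf2 (0.879) and Gnb4 (0.879). Nrp1 was most like Gna12 (0.909), Tnfaip1 (0.898) and Rgl1 (0.873), and Nrp2 like Spred1 (0.920), Naa20 (0.911) and Nrbf2 (0.900). Angpt1 was most like the collagen-processing protease gene Adamts14 (0.971), Ror1 (0.944) and Plxdc2 (0.933), and Angpt2 like Ccnyl1 (0.870), Sncaip (0.859) and Col18a1 (0.830). Flt4, with 35 UMIs, was too sparse for this measure.

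At day 1 after fracture, levels were read against free RNA. The nuclei retained at day 1 are not the study's set, since far more were kept here, as described under the processing. The 43464 barcodes with under 200 genes held 6848386 of the 9389014 UMIs, and their CPM is taken as the level of RNA free in the droplets. Vegfa was the only one of the 10 genes above this level in the myogenic-like nuclei. The myogenic-like name was given more loosely at day 1 than the other names, as described under the processing. It had 261 UMIs in 1182 myogenic-like nuclei (413 CPM, 365 to 467) against 1737 UMIs (254 CPM, 242 to 266) in free RNA, a ratio of 1.63 (1.43 to 1.86). Skeletal lineage-like nuclei (188) had 33 UMIs (399 CPM, ratio 1.57, 1.08 to 2.22). Immune-like nuclei (246) had 12 (136 CPM, ratio 0.535, 0.276 to 0.937). None of the 10 genes was called 2-fold higher in myogenic-like nuclei, where 5.51% of all genes tested were, and only Kdr was lower with 2 UMIs (ratio 0.339, 0.0402 to 1.28), where 25.6% were. Among the myogenic-like clusters the one led by Atf3, Nes and Egr1 (202 nuclei) had the highest Vegfa, with 59 UMIs (563 CPM, 428 to 726), 2.22 times free RNA (1.68 to 2.87), and 14.2% of genes tested reached 2-fold there. The other 5 myogenic-like clusters ranged from 200 to 453 CPM. In 1 of these, of 180 nuclei, Nrp1 had 14 UMIs, 2.13 times free RNA (1.15 to 3.6). The unnamed cluster of 215 nuclei led by Vmn2r76 was lowest, with 14 UMIs (75.3 CPM, ratio 0.297). In that cluster Vegfc (10 UMIs, ratio 2.75, 1.29 to 5.21), Tek (14, ratio 2.38, 1.28 to 4.07) and Nrp1 (22, ratio 1.62, 1.01 to 2.48) were above free RNA and Nrp2 (11, ratio 0.519, 0.258 to 0.933) below. Of the other unnamed clusters, that of 312 nuclei had Vegfc above free RNA (12 UMIs, ratio 4.94, 2.49 to 8.91) and that of 262 nuclei Flt1 (15 UMIs, ratio 2.68, 1.49 to 4.48). For these unnamed clusters no share over all genes is given.

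In the named populations most other genes lay near the level of free RNA at day 1. Over all retained nuclei none of the 10 genes was called higher or lower, where 6.73% and 8.7% of all genes tested were. Flt1 had 75 UMIs in all retained nuclei (62.4 CPM) and 428 in free RNA (62.5 CPM), a ratio of 0.998 (0.770 to 1.28). In myogenic-like nuclei Flt1 (26 UMIs, ratio 0.659, 0.425 to 0.979) and Nrp2 (46, ratio 0.639, 0.464 to 0.860) were below it. Angpt1 had 70 UMIs there (111 CPM against 96.5, ratio 1.15, 0.885 to 1.47). In all retained nuclei Nrp1 (118 UMIs, ratio 1.34, 1.09 to 1.65) and Vegfc (40, ratio 1.7, 1.16 to 2.44) were above free RNA, Nrp2 (97, ratio 0.707, 0.567 to 0.875) was below, and Kdr (8), Flt4 (14), Angpt2 (16) and Tek (41) were within counting error of it. In immune-like nuclei Vegfc (4 UMIs, ratio 2.31, 0.621 to 6.06) and Angpt2 (4, ratio 4.30, 1.14 to 11.5) passed 2-fold, and so did 24.4% of all genes tested, while Kdr, with 0 UMIs, was the only one called lower (36.8% of all genes tested). In skeletal lineage-like nuclei none was higher (15.1%) and Kdr and Angpt2, both with 0 UMIs, were lower (48.5%). These immune-like nuclei are named with little RNA behind them, since they had a median of 338 UMIs, immune markers at 1605 CPM against 1177 in free RNA, and leading genes such as Gabrr3 and Lef1 that are not among the markers.

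No endothelial-like cluster was found at day 1 with the mitochondrial limit of 0.5%. With a limit of 5%, which retained 5414 nuclei, 66 nuclei formed an endothelial-like cluster, with 91 UMIs of 12 of the 14 endothelial markers (3208 CPM against 1034 in free RNA). The cluster was led by Cpa3, Kitl, Kit and Pparg, of which Cpa3 is a mast cell gene, and was small in RNA, with 28368 UMIs. Flt1 had 6 UMIs there (212 CPM, ratio 3.38, 1.24 to 7.43), Nrp1 7 (247 CPM, ratio 3.38, 1.35 to 7.02), Tek 4 (141 CPM, ratio 4.45, 1.20 to 11.6), Vegfc 2 (ratio 3.6, 0.432 to 13.3) and Kdr 1 (ratio 3.77, 0.0940 to 21.8). Flt4, Angpt1 and Angpt2 had none. Thus 5 of the 10 genes were called higher than free RNA, as were 18.4% of all genes tested, and the 3 without a UMI were called lower, as were 63.6%.

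With the same wider limit, 260 macrophage-like nuclei had Vegfa at 40 UMIs (390 CPM, ratio 1.54, 1.10 to 2.10), Nrp1 at 16 (156 CPM, ratio 2.14, 1.21 to 3.51), Nrp2 at 25 (244 CPM, ratio 2.14, 1.38 to 3.18) and Angpt2 at 5 (48.8 CPM, ratio 4.64, 1.46 to 11.3). The last 3 passed 2-fold, where 16.9% of all genes tested did, and none was lower, where 42.4% were. The macrophage marker list stood at 1834 CPM there against 668 in free RNA. In all 503 immune-like nuclei Nrp2 (49 UMIs, ratio 2.27, 1.67 to 3.03) and Angpt2 (6, ratio 3.02, 1.07 to 6.89) were higher (15.2% of all genes tested) and none lower (29.8%). Skeletal lineage-like nuclei (439) had Vegfc at 11 UMIs (51.5 CPM, ratio 2.63, 1.28 to 4.86) and Nrp1 at 30 (141 CPM, ratio 1.92, 1.28 to 2.78), but Vegfa at 0.923 of free RNA (0.683 to 1.22). Of the 10 genes, Vegfc was called higher (15.4% of all genes tested), and Kdr with 0 UMIs and Angpt2 with 1 were called lower (30%). In the myogenic-like nuclei (2418) Vegfa stayed above free RNA, with 393 UMIs (ratio 1.33, 1.19 to 1.49). None of the 10 genes was called higher there (3.79% of all genes tested) and Kdr, with 4 UMIs, was lower (14.6%), and over all nuclei retained with this limit none was called higher (5.06%) or lower (3.35%). The myogenic-like nuclei of this limit held a cluster of 221 nuclei led by genes such as Il17ra, Irak3 and Cybb, which are not among the myogenic markers. A cluster of 214 nuclei led by Atf3, Nes and Plk2 stayed unnamed and outside them, with Vegfa above free RNA. By their intervals, the unnamed cluster of 541 nuclei had Vegfc, Flt1, Nrp1, Angpt2 and Tek above free RNA and Vegfa and Nrp2 below. That of 676 nuclei had Vegfc and Tek above and Vegfa below. That of 319 nuclei had Flt4 above and Vegfa below, and that of 194 nuclei Nrp1 above. No share over all genes is given for the unnamed clusters, so these genes cannot be set against one. Levels of Flt1, Tek and Angpt2 above free RNA were thus not particular to the named populations. For the day 5 MTI library no level of free RNA is given, because every barcode held at least 500 UMIs and 27 had under 200 genes.

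**Figure D5:**
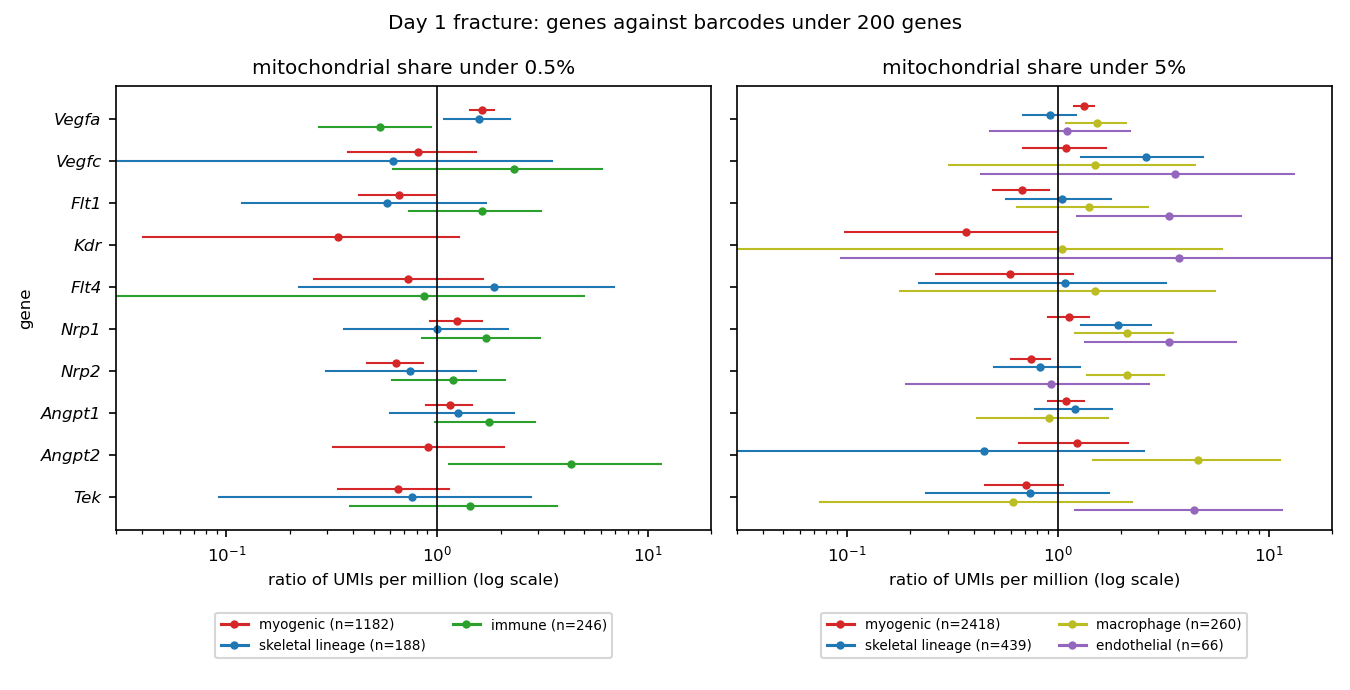
Ratio of CPM in named populations over barcodes under 200 genes (free RNA) for the 10 genes in the day 1 fracture library, with the mitochondrial limit of 0.5% (left) and 5% (right), on a log axis. Points are ratios, lines exact 95% intervals for counting error that may run past the axis, and genes with 0 UMIs are not drawn; Vegfa in myogenic-like nuclei lies above 1 in both panels (1.63 and 1.33).

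Read by class in each library, and not compared between them, Vegfa in myogenic-like nuclei was 2.41 times (1.90 to 3.07) the other nuclei at day 1 and 1.22 times (0.963 to 1.53) after MTI. Angpt1 in skeletal lineage-like nuclei was 1.09 times (0.511 to 2.08) the others at day 1, with 10 UMIs, and 5.79 times after MTI, with 264. Nrp1 in immune-like nuclei was 1.29 times (0.627 to 2.41) the others at day 1, with 11 UMIs, and 2.46 times (2.24 to 2.70) after MTI, with 1130. The low counts at day 1 leave its intervals wide, and day, injury and depth differ together.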

How the data were processed

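The authors aligned the reads with Cell Ranger to mm10, intronic and exonic reads included, and the deposited values are UMI counts of each gene in each barcode, not normalized. The sample labels also name a human reference, but all 32285 identifiers are mouse. Barcodes were kept if they had at least 200 and at most 5000 genes. Mitochondrial UMIs had to stay below 0.5% at day 1 and 5% after MTI, and ribosomal UMIs below 2.5% and 2%. These cutoffs are those the authors give, but myogenic nuclei were kept here. At day 1 the 2405 nuclei kept, even without the 1182 myogenic-like ones, far outnumbered those the study reports. After MTI the 1127 nuclei without the 126 myogenic-like ones came close to the study's number. The day 1 nuclei described here are therefore not the study's set, and the cause of the difference was not tested. Each library was clustered alone in Seurat 5.3.0 (R 4.3.3) on 2000 variable genes without the described genes, with 20 components and resolution 1.7 (day 1) or 30 and 1.0 (MTI). Immune-like and skeletal lineage-like nuclei of the MTI library were reclustered with 20 components at resolution 1.5 and 15 at 0.5. A name was given where 3 or more of its markers reached 3 UMIs and 1.5 times the level of the other nuclei, and some stood among the leading genes. For the chondro-osteogenic-like and progenitor/fibrogenic-like names the other nuclei were the other skeletal lineage-like ones only. Clusters of low median depth also needed a marker among their 10 leading genes. At day 1 only, clusters left without a name could still be called myogenic-like by a looser test. It asked whether muscle markers took up a larger fraction of their RNA than of the RNA in the whole library. No number, level or rank of these markers was required there. The naming thresholds were set after exploratory clusterings had been seen, and the markers Cd8 and Ntn1 of the study were read as Cd84 and Ntng1. The genes, lists and markers were chosen with earlier results of these data known. The text names all 10 genes, pathway genes at least 2-fold higher in a named population with at least 20 UMIs, every ligand, and the 3 genes of most like pattern. A few others (Sox18, Aplnr, Esm1, Sox17) were named after their values were seen. Scrublet in scanpy 1.11.5 marked 3 of 5523 and 1 of 1419 nuclei, too few for it to have worked, so doublets were kept. Sums, intervals and ratios were computed in Python 3.11.15 (numpy 2.4.6, scipy 1.17.1, pandas 2.3.3). The ratios and their intervals were tried on simulated counts with counting error only, which leaves clumping of UMIs in single nuclei untested. The other datasets of the study were not used here. Gene positions come from the GENCODE annotation of mm10, which holds 99.6% of the identifiers.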

Additional observations from a re-analysis of the deposited data

How the results depend on the processing

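The main alternatives were another mitochondrial limit (5% at day 1, 0.5% after MTI), at least 500 genes, no upper gene limit, doubled resolution, the described genes kept in the clustering, nothing regressed out, naming by each nucleus's own markers, removal of marked doublets, other UMI totals and, at day 1, free RNA from barcodes under 100 genes. Leaving out the shared barcodes or the unnamed clusters, and the alternatives for the pathway list and for monocyte-like Vegfa and Egln3, were chosen after seeing the data. Over 14 results, 139 of 151 alternatives stayed within the interval of the main value and 12 did not. The 151 leave out settings in which a population was not found, and include some that could not move a result. For the count of genes the limit was 1.5 times. A reversal was counted only for ratios past the 2-fold limits, and 0 of these reversed. Ratios near 1 could cross it. Day 1 Angpt1 did so, with 1.15 in the main setting and 0.929 against barcodes under 100 genes. Day 1 Flt1 was read over all retained nuclei, so settings that changed only the clusters could not move it. With the 0.5% limit, which left 687 nuclei after MTI, the endothelial-like ratio of Flt4 was 598 and of Angpt2 32.5; the cause was not tested. The macrophage-like ratio of Nrp1 was 2.53 with that limit, 2.72 with 500 genes, 2.42 without an upper limit, 2.63 with doubled resolution, 2.80 with the described genes kept, 2.67 with nothing regressed out and 2.68 without doublets. In the same order, 153, 169, 236, 221, 194, 224 and 189 nuclei took the macrophage name, against 283 in the main setting. The last of these settings removed only 1 nucleus, so its lower number is not a measure of doublets. The shares and subclusters given for macrophage-like nuclei hold for the main setting only. The skeletal lineage-like ratio of Vegfa was 2.04 without an upper limit, past the 2-fold limit that it otherwise missed (lowest 1.29). The day 1 myogenic-like ratio of Vegfa was 1.33 with the 5% limit and 1.32 with own markers. With the 5% limit the cluster led by Atf3, Nes and Plk2 stayed unnamed and was not part of the myogenic-like nuclei. Elsewhere the ranges were 108 to 200 for Kdr, 33.4 to 49.8 for Flt1, 45.6 to 63.5 for Tek, 8.06 to 8.90 for osteoclast-like Nrp2, 3.28 to 3.89 for Vegfc and 5.12 to 6.11 for Angpt1 in skeletal lineage-like nuclei, and 14 to 16 pathway genes. Monocyte-like Vegfa ranged from 3.26 to 5.41 and Egln3 from 7.46 to 9.69. The monocyte name went to 64 nuclei in the main setting, 111 with at least 500 genes and 9 with own markers. At day 1, Flt1 ranged from 0.974 to 1.09 and Angpt1 from 0.929 to 1.20. The skeletal lineage-like and monocyte-like results have no value with the 0.5% limit, since no cluster took these names. No paired analysis was possible because each condition has 1 library. Depth limits the day 1 values most, where a population often holds under 10 UMIs of a gene.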
